A study of Mus musculus with 42 samples.

Results

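Methyl groups on lysine 4 of histone H3 (H3K4) are written by 6 enzymes of the SET1/MLL family and removed by the KDM5 and KDM1 demethylases. The 10 genes described here are the 6 methyltransferases Kmt2a (MLL1), Kmt2b, Kmt2c, Kmt2d, Setd1a and Setd1b, the shared subunits Ash2l and Wdr5, and the demethylases Kdm5a and Kdm5b. They were taken by symbol from a count table of 45317 gene entries, and all 10 were found and passed the filter on low counts. The rule goes by symbol and uses no measured value. The cells were mouse bone marrow mesenchymal stem cells (MSCs, strain C57BL/6, a bought stock used at passage 9 to 10), which can become bone or fat cells. Cells received one of 4 treatments for 48 h: the solvent DMSO at 0.1%, the PPARγ agonist rosiglitazone (ROSI) at 100 nM, the RXR agonist AGN194204 (labelled 4204) at 100 nM, or tributyltin (TBT), an organotin that activates both receptors, at 50 nM. RNA was sequenced from 6 libraries per treatment, 24 in all. ChIP-seq of H3K4me3 and of H3K27me3 was done on 4 DMSO and 4 TBT libraries per mark, with 1 input per treatment.

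Each SET1/MLL enzyme works in a multi-subunit complex, and WDR5 and ASH2L belong to the core that all of these complexes share and that the catalytic subunits need for activity. SETD1A and SETD1B are known for H3K4 trimethylation at active promoters, KMT2A and KMT2B for trimethylation at selected promoters, and KMT2C and KMT2D for monomethylation at enhancers. KMT2C and KMT2D are also known as coactivators of PPARγ in fat cell differentiation. KDM5A and KDM5B take off the second and the third methyl group.

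Libraries held 3801758 to 5347365 counts in genes. TBT replicate 2 stood apart: its chi-square per gene against the 5 other TBT libraries was 3.4 to 4.79, against 1.45 to 2.39 for the other TBT pairs and 1.35 to 2.85 within the other treatments. It also had the most gene counts, the highest share of reads outside genes (24.3%) and the fewest ERCC control reads (0.326 per 100 gene counts). Member calls that were lost without it are given with and without it. The 10 stromal surface markers (such as Thy1, Cd44 and Pdgfrb) all passed the filter. They summed to 1546 to 1686 CPM (counts scaled to a common library size with TMM factors) in the 24 libraries. Itgb1 had the highest mean with DMSO, at 602 CPM, while Nt5e and Eng were low, at 3.14 and 6.05. The macrophage marker Adgre1 was at 0 counts in each treatment. Cd68 and Csf1r, also found in macrophages, were detected, with DMSO means of 5.40 and 5.99 CPM. Of 10 blood and endothelial markers, 4 passed the filter, and the list summed to 260 to 274 CPM with DMSO, 257 to 273 with ROSI, 223 to 247 with 4204 and 213 to 249 with TBT. Cd34 alone made up most of it, with means of 250, 254, 220 and 219 CPM and log2 differences from DMSO of -0.19 ± 0.038 with TBT and -0.19 ± 0.038 with 4204, both past the test. The endothelial gene Pecam1 was at a mean of 2.68 CPM or less, and the leukocyte gene Ptprc, Itgam and the endothelial Cdh5 at under 1 CPM. The 8 fat cell markers summed to 93.8 to 104 CPM with DMSO, 139 to 162 with ROSI, 299 to 372 with 4204 and 359 to 407 with TBT, so 4204 and TBT overlapped each other and lay above both other groups. The lipid droplet gene Plin4 carried most of this sum with 4204 and TBT, at means of 218 and 267 CPM. It was at 74.6 with ROSI and at 38.1 with DMSO, where Pparg was at 44.3. Pparg, the receptor's own gene, differed from DMSO by 0.46 ± 0.063 in log2 with TBT and 0.63 ± 0.062 with 4204 but by -0.27 ± 0.068 with ROSI (adjusted p = 0.0356 by edgeR). Fabp4, a fatty acid carrier and PPARγ target, differed from DMSO by 4.00 ± 0.16 in log2 with TBT, 3.25 ± 0.18 with 4204 and 3.03 ± 0.18 with ROSI, while Lep was at 0 counts in every treatment and Adipoq, which marks mature fat cells, in all but DMSO. Single stromal markers moved within the steady sum: Thy1 differed by -0.58 ± 0.072 and Cd44 by -0.41 ± 0.03 with TBT, and Pdgfrb by 0.35 ± 0.045, each past the threshold of the edgeR test that was used for the members. Nothing in the labels says that replicates are separate cultures, so p-values measure the spread between these libraries. In bulk RNA, fewer cells of a type and less RNA per cell cannot be told apart.

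The start regions of the members differ in their content of CpG dinucleotides, the sequence feature that goes with H3K4me3 at promoters. RefSeq promoter sequences (build GRCm38.p6) matched 6 of the 10 members. The 250 bases before the start held 48 CpGs in Kmt2c, 29 in Kmt2a, 26 in Kmt2d, 25 in Setd1a, 13 in Kdm5b and 12 in Wdr5, against a median of 6 over 32841 promoters of the same length. The stretch with the most CpGs and the 2 with the fewest are printed 5′ to 3′ to show this contrast, with CpGs in capitals. Kmt2c lies at chr5:25498784-25499033 on the minus strand, Kdm5b at chr1:134559928-134560177 on the plus strand and Wdr5 at chr2:27514897-27515146 on the plus strand.
Kmt2c: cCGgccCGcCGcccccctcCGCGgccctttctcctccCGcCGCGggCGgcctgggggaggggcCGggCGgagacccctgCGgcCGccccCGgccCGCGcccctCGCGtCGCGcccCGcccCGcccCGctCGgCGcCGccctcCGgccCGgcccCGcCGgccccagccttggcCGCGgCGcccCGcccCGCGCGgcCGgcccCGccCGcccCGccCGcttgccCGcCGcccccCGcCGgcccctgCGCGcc
Kdm5b: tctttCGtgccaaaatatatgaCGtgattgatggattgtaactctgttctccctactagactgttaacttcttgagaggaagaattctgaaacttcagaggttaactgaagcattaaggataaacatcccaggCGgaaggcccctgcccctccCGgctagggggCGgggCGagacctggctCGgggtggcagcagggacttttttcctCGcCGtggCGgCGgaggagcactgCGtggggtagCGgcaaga
Wdr5: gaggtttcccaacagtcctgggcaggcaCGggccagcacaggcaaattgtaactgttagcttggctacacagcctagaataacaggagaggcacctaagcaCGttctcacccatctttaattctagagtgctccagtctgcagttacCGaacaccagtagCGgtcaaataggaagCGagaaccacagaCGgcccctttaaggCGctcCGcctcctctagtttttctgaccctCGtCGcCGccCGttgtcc
GC content was 91.6% in the Kmt2c stretch and 54.4% in those of Kdm5b and Wdr5, against a median of 52.4%. The GC box GGGCGG was found on either strand in 5 of the 6, 12 times in Kmt2c, and in 32.7% of all promoters. The nuclear receptor half-site AGGTCA, which both RXR and PPARγ can bind, was in 0 of the 6 and in 14% of all promoters. The NF-Y letters CCAAT were also in 0 of the 6 and in 33.9% of all promoters. An ETS site written CCGGAAG was in 0 of the 6 and in 6.91% of all. An E2F site written TTCCCGC was in 0 of the 6 and in 3.82% of all. Each was searched on both strands, and no match says only that these letters are not in this window.

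Across the 4 treatments, 4 of the 10 members passed the threshold of 0.05 in one edgeR quasi-likelihood F test of any difference between treatments, with Benjamini-Hochberg adjustment over 12529 genes: Ash2l (adjusted p = 8.57e-05), Wdr5 (adjusted p = 0.00648), Kdm5b (adjusted p = 0.0402) and Kmt2a (adjusted p = 0.0491). Of all genes tested, 34.6% passed, so the members' share was near the background. Setd1b missed the threshold (adjusted p = 0.059). Kmt2b, Kmt2c, Kmt2d, Setd1a and Kdm5a had adjusted p of 0.246 or more. All differences were small: the highest treatment mean was 1.04 times the lowest for Kmt2c and 1.22 times for Kdm5b, with the other 8 genes in between.

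**Figure D1:**
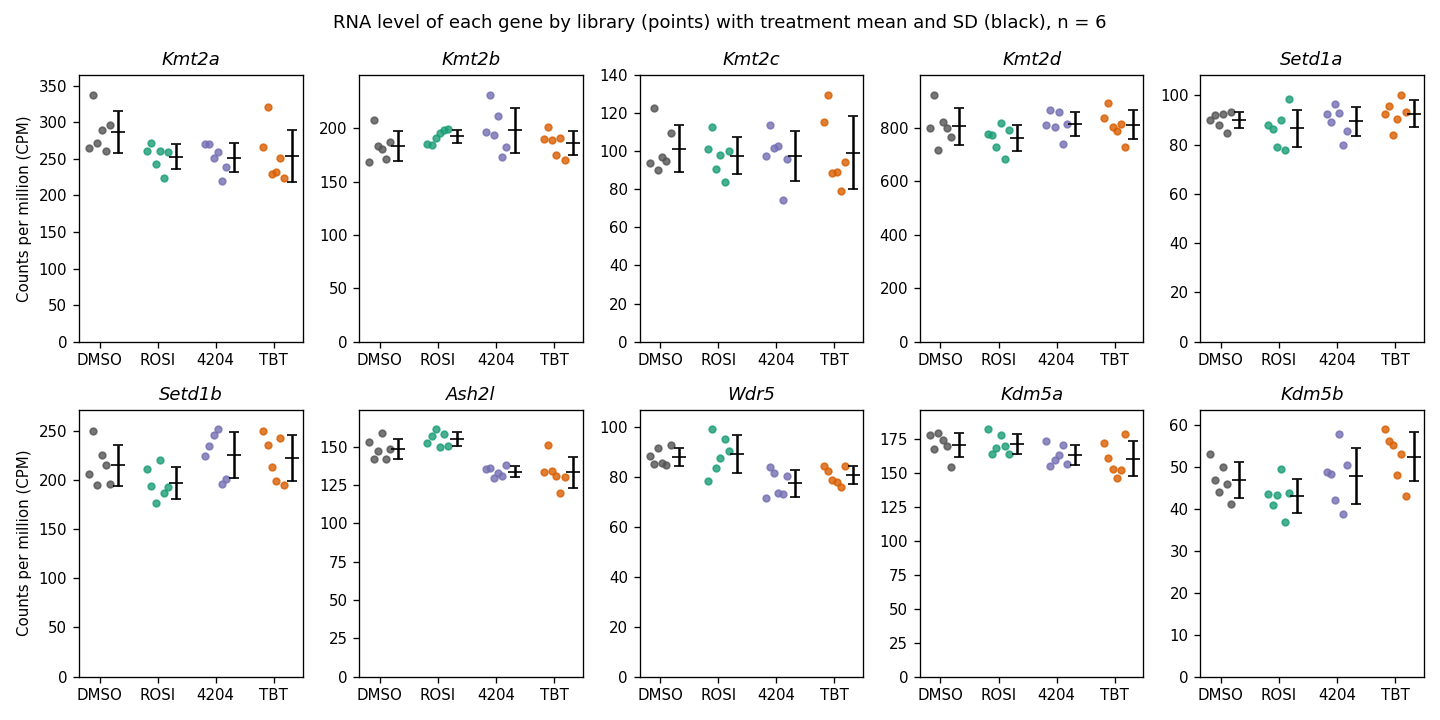
RNA level in CPM (vertical axis, from 0) of each of the 10 genes in every library by treatment (6 points each), with the mean and SD in black. Ash2l and Wdr5 sit lower with 4204 and TBT than with DMSO, and for most other genes the 4 treatments overlap.

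Ash2l, the core subunit that helps the catalytic SET domain into its active form, fell with 4204 and with TBT. It ranged from 142 to 159 CPM (median 148) with DMSO, from 150 to 161 (median 155) with ROSI, from 129 to 138 (median 134) with 4204 and from 119 to 151 (median 132) with TBT. Every 4204 library lay below every DMSO library, and 5 of 6 TBT libraries did; the exception was TBT replicate 2, at 151 CPM. The log2 difference from DMSO was -0.15 ± 0.043 (SE) with TBT (adjusted p = 0.00684 by edgeR; -0.20, adjusted p = 1.43e-04, without TBT replicate 2) and -0.15 ± 0.043 with 4204 (adjusted p = 0.00849). With ROSI it was 0.06 ± 0.043 (adjusted p = 0.646). TBT and 4204 gave nearly the same level, with a log2 difference of -0.00068 and a 95% interval of -0.09 to 0.089. Against ROSI, Ash2l was lower by a log2 difference of -0.21 both in TBT (adjusted p = 2.44e-04) and in 4204 (adjusted p = 3.07e-04). In order of mean level the treatments ran TBT, 4204, DMSO, ROSI, where neither the first pair nor the last pair passed the test. With library sizes from the ERCC control RNAs both calls against DMSO ended, at -0.06 with TBT (adjusted p = 0.73) and -0.14 with 4204 (adjusted p = 0.387).

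Wdr5, the core subunit that holds the catalytic enzymes through a short motif of theirs, was also lowest with these agents. It ranged from 84.5 to 92.7 CPM (median 86.8) with DMSO, from 78.4 to 98.9 (median 88.8) with ROSI, from 71.6 to 84 (median 76.9) with 4204 and from 75.7 to 84.4 (median 80.6) with TBT. All 6 libraries of 4204 and all 6 of TBT lay below all 6 of DMSO, whereas the ROSI libraries spanned both. The highest TBT library, at 84.4 CPM, was only just under the lowest DMSO library, at 84.5. How many of all genes lack overlap in this way, here or for Ash2l, was not computed. The fall passed the test with 4204, with a log2 difference from DMSO of -0.18 ± 0.055 (-11.9%, adjusted p = 0.0116 by edgeR). With TBT the log2 difference was -0.12 ± 0.054 (adjusted p = 0.0859), and TBT minus 4204 was 0.06 (95% interval -0.053 to 0.17, adjusted p = 0.789), so the RXR agonist and TBT were not shown to differ. Against ROSI, Wdr5 was lower in 4204 (log2 difference -0.20, adjusted p = 0.0056) and in TBT (-0.14, adjusted p = 0.0467), but the latter was lost in 5 of 9 alternatives: without the deepest library of each treatment (-0.12, adjusted p = 0.121), with DESeq2 (adjusted p = 0.0568), with no filter (adjusted p = 0.109), with only the 12 libraries compared (adjusted p = 0.0751) and with ERCC sizes (-0.01, adjusted p = 0.93). With ERCC sizes the 4204 call against DMSO was lost too (-0.17, adjusted p = 0.291). Without the deepest libraries the difference between TBT and DMSO passed (-0.14, adjusted p = 0.0489).

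Proliferation genes were also lower with TBT and 4204 on the TMM scale. They were not recomputed with ERCC library sizes. Of 15 such genes, 13 were lower with TBT and 11 with 4204 than with DMSO and 0 were higher, by the same edgeR test, where 13.9% and 11.3% of all genes were lower, with medians of -0.22 in log2 for both against -0.006 and -0.0027 over all genes. The list summed to 3951 to 4180 CPM with DMSO, 3897 to 4046 with ROSI, 3312 to 3612 with 4204 and 3217 to 3575 with TBT, and the last 2 did not overlap the first 2. Without TBT replicate 2, 11 were lower with TBT. Mcm3, a part of the replicative helicase, had log2 differences from DMSO of -0.31 ± 0.034 with TBT (adjusted p = 3.94e-09) and -0.24 ± 0.034 with 4204. The kinetochore genes Cenpf and Cenpe had -0.50 ± 0.055 and -0.33 ± 0.039 with TBT. The part of proliferation in the levels of Ash2l and Wdr5 was not tested.

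By Pearson's r of log2 CPM over the 24 libraries, the genes most like Ash2l were Ect2, the exchange factor of cytokinesis (r = 0.91), the H3K36 methyltransferase Whsc1 (0.907) and Msh6 of DNA mismatch repair (0.882). Those most like Wdr5 were Orc1 of the origin recognition complex (0.878), Sephs1 (0.831) and the mitotic kinesin Kif4 (0.825). These libraries share treatments and depth, and the values are descriptions.

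Kmt2a, whose product MLL1 keeps Hox genes active, was highest with DMSO. It ranged from 261 to 338 CPM (median 280.1) with DMSO, from 224 to 271 (median 260) with ROSI, from 220 to 271 (median 256) with 4204 and from 224 to 320 (median 242) with TBT. All 4 treatments overlapped, with 4 of the 6 libraries of each agent below every DMSO library. The log2 difference from DMSO was -0.17 ± 0.066 with TBT (adjusted p = 0.0472 by edgeR), -0.19 ± 0.066 with 4204 (adjusted p = 0.0323) and -0.18 ± 0.066 with ROSI (adjusted p = 0.215). The ROSI difference was about as large as the other two and its unadjusted p was 0.00895, and it was called with no filter on low counts (adjusted p = 0.0201) and with the replicate number as a block (adjusted p = 0.0298). The 3 agents did not differ beyond their errors, at means of 253, 252 and 254 CPM. The TBT call was lost with DESeq2 (adjusted p = 0.116), with DESeq2 size factors (adjusted p = 0.0543) and in a fit of the 12 libraries alone; without TBT replicate 2, the highest TBT library at 320.4 CPM, it was -0.25 (adjusted p = 8.35e-04). DESeq2 also gave no call for 4204 (adjusted p = 0.0954) or across the 4 treatments (adjusted p = 0.16). The genes most like Kmt2a were Prrc2c (r = 0.872), Arhgap21 (0.857) and Ago2 (0.853).

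Kdm5b, the demethylase also called JARID1B, was the member with the largest range of means, from 42.9 ± 4.07 CPM (SD, n = 6) with ROSI through 46.8 ± 4.26 with DMSO and 47.7 ± 6.69 with 4204 to 52.4 ± 5.87 with TBT. Single libraries ran from 36.9 to 49.4 CPM with ROSI and from 43.1 to 58.8 with TBT, so the groups overlapped, with 4 TBT libraries above every ROSI library. It was higher with TBT than with ROSI by 0.29 ± 0.085 in log2 (22.6%, adjusted p = 0.0075 by edgeR). Neither the difference of TBT from DMSO (0.17 ± 0.083, adjusted p = 0.126) nor the ROSI difference from DMSO (-0.12 ± 0.085, adjusted p = 0.626) passed the test. No pair of neighbours in the order of means passed the test. The 4-treatment call was lost with library depth as a covariate (adjusted p = 0.0521), without the deepest library of each treatment (adjusted p = 0.183) and without TBT replicate 2 (adjusted p = 0.0904). Its closest genes were Arid5b (r = 0.785), Dopey2 (0.771) and Zdhhc1 (0.767).

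Setd1b, a catalytic subunit of a SET1 complex, was lowest with ROSI. It ranged from 176 to 220 CPM (median 193) with ROSI, from 194 to 249 (median 211) with DMSO, from 195 to 251 (median 229) with 4204 and from 195 to 250 (median 224) with TBT, and every pair of treatments overlapped. It was higher than with ROSI by 0.18 ± 0.066 in log2 with TBT (adjusted p = 0.0358 by edgeR) and by 0.20 ± 0.066 with 4204 (adjusted p = 0.0243). Both calls were lost without the deepest library of each treatment (adjusted p = 0.0886 and 0.0566), and the TBT call with depth as a covariate (adjusted p = 0.0542) or without TBT replicate 2 alone (adjusted p = 0.0788). Its paralogue Setd1a ranged from 77.7 to 100.3 CPM over all libraries, with log2 differences from DMSO of 0.04 with TBT, -0.008 with 4204 and -0.06 with ROSI, each with an SE of 0.054 to 0.055.

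The enhancer enzymes Kmt2c and Kmt2d and the promoter enzyme Kmt2b had no difference past the threshold in any of the 6 comparisons. Kmt2d had means of 806 ± 68.8 CPM with DMSO, 763 ± 48.1 with ROSI, 815 ± 45.3 with 4204 and 811 ± 54.1 with TBT. The 95% interval of its log2 difference between TBT and DMSO was -0.086 to 0.11. Kmt2c had means between 97.5 and 101 CPM, but single libraries ranged from 74.3 to 130, and its interval was wider, from -0.21 to 0.17. Kmt2b was between 183 and 198 CPM in mean, highest with 4204 (log2 difference from DMSO 0.12 ± 0.053, adjusted p = 0.113). Kdm5a, the other demethylase, had means of 171 ± 9 CPM with DMSO, 171 ± 7.45 with ROSI, 163 ± 7.52 with 4204 and 161 ± 12.8 with TBT, and its difference of TBT from DMSO was -0.08 ± 0.046 (adjusted p = 0.176).

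**Figure D2:**
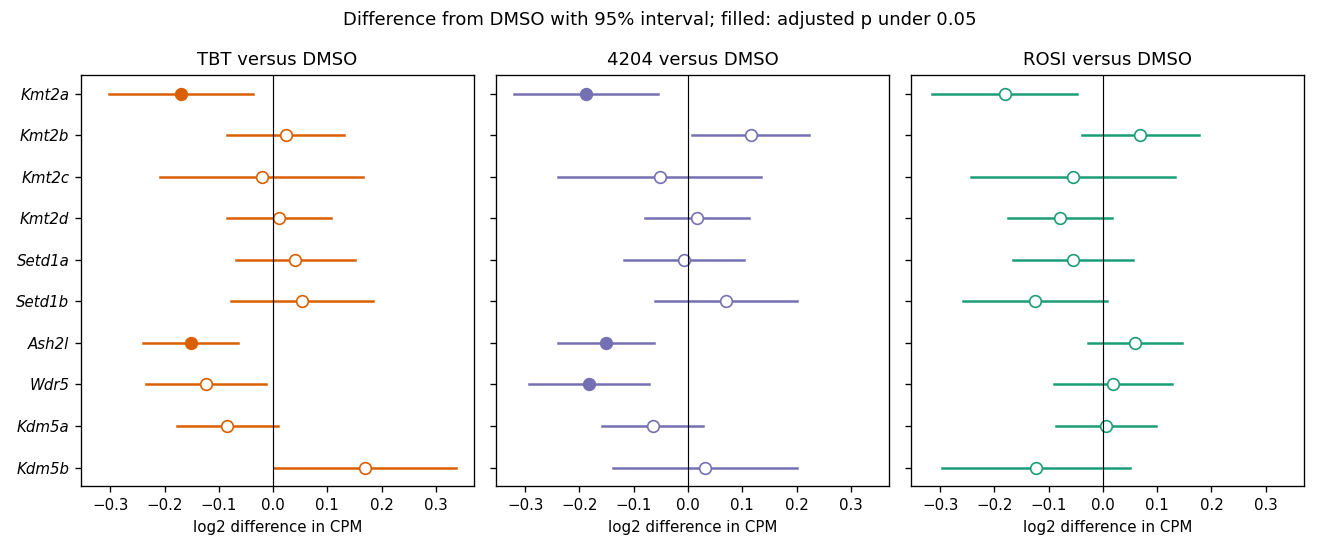
log2 difference in CPM from DMSO (horizontal axis) of each gene with TBT, 4204 and ROSI, with 95% intervals; filled points passed an adjusted p of 0.05. Filled points are Kmt2a and Ash2l for TBT, these and Wdr5 for 4204, and none for ROSI.

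By comparison, TBT against DMSO gave 0 members higher and 2 lower, where 15% of all genes were higher and 13.9% lower. 4204 against DMSO gave 0 higher and 3 lower, where 12.8% and 11.3% of genes were. ROSI against DMSO gave 0 in either direction (1 at an unadjusted p under 0.05), where 0.615% and 0.423% of genes were called; DESeq2 called 0 members there, and 2 other fits called Kmt2a. TBT against 4204 gave 0 calls (0 at an unadjusted p under 0.05, and 0 with DESeq2), where 0.407% and 0.439% of genes were called, and the 95% intervals of the 10 members lay within -0.20 to 0.31 in log2. TBT against ROSI gave 2 higher and 2 lower, where 15.2% and 13.5% of genes were, and 4204 against ROSI gave 1 higher and 2 lower, where 13.5% and 11.2% were. These counts are near the background or too few to set against it. The comparisons share control libraries and are not independent. The median size of the log2 difference between TBT and DMSO, regardless of sign, was 0.069 over the members and 0.13 over all genes. 

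Scaling mattered to these calls. When library sizes came from the added ERCC control RNAs, the median gene moved to 0.084 in log2 for TBT against DMSO and to 0.13 for TBT against ROSI. For 4204 it was at 0.0089 against DMSO and at 0.047 against ROSI. No member call against DMSO remained. With 4204, the log2 differences of Ash2l and Wdr5 from DMSO given above changed little while their calls were lost. Ash2l was at -0.08 in TBT against ROSI (adjusted p = 0.581). Kdm5b (0.43, adjusted p = 0.0085) and Setd1b (0.31, adjusted p = 0.0403) were called in TBT against ROSI on this scale too. The split over all genes went from 1878 higher and 1745 lower to 1802 and 293 for TBT against DMSO, and from 1908 and 1690 to 2426 and 172 for TBT against ROSI. It went from 1600 and 1414 to 908 and 300 for 4204 against DMSO, from 1697 and 1400 to 1162 and 184 for 4204 against ROSI, and from 51 and 55 to 13 and 7 for TBT against 4204. ERCC reads were 0.326 to 0.502 per 100 gene counts, and the 4 treatments overlapped. The other gene lists of this report were tested with TMM factors only and were not recomputed on the ERCC scale.

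The levels of 5 of the 6 methyltransferases went with library depth within treatments. In an edgeR fit with treatment and the log2 of each library's gene count total, Kmt2c rose by 1.51 ± 0.14 (SE) in log2 CPM per doubling of depth (adjusted p = 1.62e-09), Kmt2a by 1.03 ± 0.11 (adjusted p = 4.53e-08), Setd1b by 0.64 ± 0.18 (adjusted p = 0.0121), Kmt2b by 0.61 ± 0.13 (adjusted p = 0.00119) and Kmt2d by 0.57 ± 0.11 (adjusted p = 3.18e-04). Setd1a, Ash2l, Wdr5, Kdm5a and Kdm5b gave slopes of -0.11 to 0.45, none past the threshold. Of all genes, 5.97% rose and 9.49% fell with depth. The fit was added after the values had been seen. Replicate 2 was the deepest library of each treatment, with 5087215 counts for DMSO, 4601891 for ROSI, 4877089 for 4204 and 5347365 for TBT. Kmt2c was at 123, 113, 114 and 130 CPM in these 4 libraries, the highest value of each treatment, and at 74.3 CPM in the shallowest library, 4204 replicate 5, with 3801758 counts. Without the deepest library of each treatment, the slopes of Kmt2c (1.54 ± 0.24, adjusted p = 2.16e-04) and Kmt2a (0.86 ± 0.18, adjusted p = 0.00501) passed and the other 3 did not; without TBT replicate 2 alone all 5 passed. With depth in the fit, Kmt2a differed from DMSO by -0.13 in log2 with TBT (adjusted p = 0.00497) and by -0.13 with 4204 (adjusted p = 0.0101), and Ash2l by -0.14 with both. Kmt2b was then higher with 4204 than with DMSO, which it was not in the fit without depth.

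Among the members, Kmt2a and Kmt2c varied most alike. Taken as deviations from treatment means over the 24 libraries, Pearson's r of the 45 pairs ran from -0.28 to 0.853, with a median of 0.296 and the highest for Kmt2a with Kmt2c. Next came Kmt2a with Kmt2d at 0.802, Kmt2d with Setd1b at 0.780, Kmt2c with Kmt2d at 0.707 and Kmt2d with Kdm5b at 0.689. The lowest was Kmt2b with Kdm5a, and Kmt2c with Kdm5a was at -0.055. The deviations of Kmt2c and Kmt2a followed those of log2 depth with r of 0.923 and 0.883. All these values share the libraries and their depth and are descriptions.

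**Figure D3:**
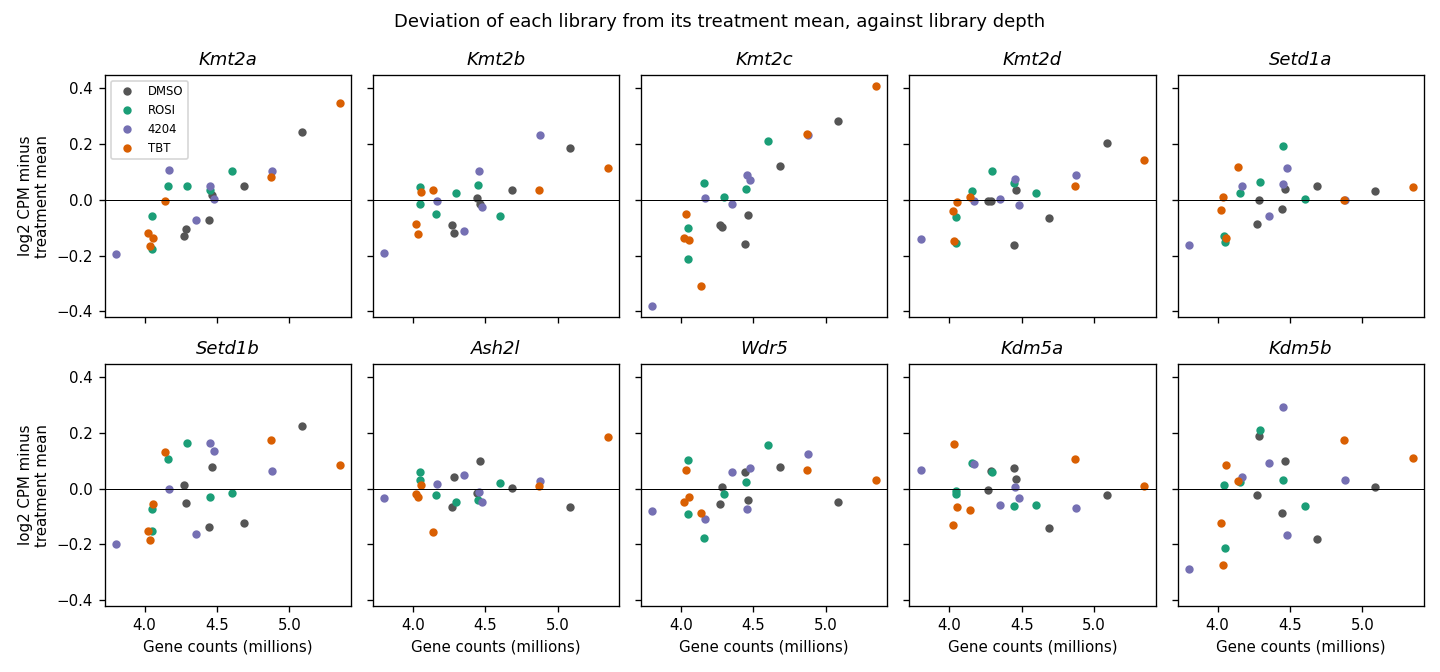
log2 CPM of each library minus its treatment's mean (vertical axis) against the library's gene counts (horizontal axis), 24 points per gene coloured by treatment. Kmt2a and Kmt2c climb from left to right and Kdm5a does not.

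Of 14 other subunits of the SET1/MLL complexes, 0 were higher, and 4 were lower with TBT, 5 with 4204 and 0 with ROSI than with DMSO, where 13.9%, 11.3% and 0.423% of all genes were lower, with medians of -0.06, -0.11 and -0.01 in log2. Psip1 (LEDGF), which tethers MLL1 to chromatin, differed by -0.19 ± 0.035 with TBT (adjusted p = 4.56e-05 by edgeR) and -0.12 ± 0.035 with 4204 (adjusted p = 0.00803). Bod1l, a partner of SETD1A, differed by -0.24 ± 0.051 (adjusted p = 3.2e-04) and -0.17 ± 0.051 (adjusted p = 0.00994). Paxip1 (PTIP), of the KMT2C and KMT2D complexes, fell with 4204 (-0.15 ± 0.055, adjusted p = 0.0476) and was at 0.02 ± 0.054 with TBT. The difference between these was 0.17 ± 0.055 and did not pass (adjusted p = 0.17). Without TBT replicate 2, 5 of the 14 were lower with TBT than with DMSO, where 1907 of 12612 genes were lower.

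The counts in the next lists stand against 15% of all genes higher and 13.9% lower with TBT, and 12.8% and 11.3% with 4204; with so few genes a list, none is read as more than that background. Among other genes for H3K4 methylation, 7 of 8 passed the filter, and 0 were higher and 2 lower with TBT, against 1 and 3 with 4204. Kmt2e, an MLL homologue, fell with both agents (-0.19 ± 0.05, adjusted p = 0.00266, and -0.15 ± 0.05, adjusted p = 0.0273). Setd7, a monomethyltransferase, fell with 4204 (-0.14 ± 0.044, adjusted p = 0.0151). Prdm9, known from meiotic recombination, rose with 4204 by 0.44 ± 0.14 (adjusted p = 0.0152) from a mean of 9.26 ± 1.72 CPM to 12.6 ± 1.59. Of 6 other demethylases tested, 0 were higher, 1 was lower with TBT and 2 with 4204. Kdm1a (LSD1), which acts on mono- and dimethylated H3K4, fell by -0.19 ± 0.05 with TBT (adjusted p = 0.00352) and -0.23 ± 0.05 with 4204 (adjusted p = 6.94e-04) and was at 0.04 ± 0.049 with ROSI. Its CoREST partners Rcor1 (-0.23 ± 0.063, adjusted p = 0.00446) and Hdac2 (-0.17 ± 0.041, adjusted p = 0.00145) were lower with TBT, as 2 of 7 in that list, and 0 of 7 passed with 4204. Rcor2 was at -0.10 ± 0.077 with TBT and -0.19 ± 0.077 with 4204, neither past the threshold. Of 15 proteins with a domain that reads H3K4me3, 4 were lower with TBT and 3 with 4204, and 0 were higher. Ing1 had -0.21 ± 0.063 and -0.27 ± 0.063, the remodeller Chd1 -0.13 ± 0.039 and -0.17 ± 0.04, and Bptf of the NURF complex -0.16 ± 0.044 and -0.17 ± 0.044. These treatments were also those with the lower summed proliferation genes, whose part was not tested. Without TBT replicate 2, 3 of the other genes for H3K4 methylation and 5 of the reading proteins were lower with TBT, where 1907 of 12612 genes were. The counts of other demethylases and CoREST partners stayed at 1 and 2.

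All 10 genes carried H3K4me3 in each of the 8 ChIP libraries of this mark. How many of all genes did so was not computed. The authors' islands (stretches enriched over input, called per library) covered the annotated start in 8 of 8 libraries for the 6 members with a known start, and for Kmt2b the upper end of the annotated span and for Setd1b and Kdm5a the lower end, the strand of these 3 not being in the tables used. Ash2l had no island within 1000 bases of either end of its span (chr8:25816000-25847694) and one in 8 of 8 libraries that ended 4094 to 5494 bases inside the upper end. By the authors' values, the start island of Kdm5b was 2000 to 3200 bases wide and 17.1 to 38.4 times the input. Kmt2c had 13.3 to 27.6 times, Wdr5 had 6.16 to 17.5 times and Kmt2a 7.18 to 13.2 times. The island inside Ash2l was 4200 to 8600 bases wide and 3.9 to 8.75 times the input. The island over the start of Kmt2d was 21400, 25400, 12800 and 10000 bases wide in the DMSO libraries. In the TBT libraries it was 9600, 8200, 6600 and 8600 bases wide, so the widths did not overlap. It was 3.09 to 16.5 times the input. How many of all islands lack overlap in width in this way was not computed.

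Islands of the 8 libraries were merged where they overlapped, and the reads of 12813 merged regions with an island in every library were tested. None of the 10 regions at the starts or ends of 9 members differed between TBT and DMSO by edgeR, and 1 had an unadjusted p under 0.05. Of all regions, 0.109% were higher and 0.0546% lower, and 1048 had an unadjusted p under 0.05; DESeq2 called 136 regions and also 0 of these 10. At Wdr5 the mean was 130 ± 8.23 CPM of island reads (scaled to each library's total in the tested regions; SD, n = 4) with DMSO and 122 ± 5.85 with TBT, a log2 difference of -0.09 (95% interval -0.22 to 0.031, adjusted p = 0.722). At Kdm5b it was 101 ± 2.82 and 108 ± 9.02 (0.09, interval -0.041 to 0.23, adjusted p = 0.743). At Kmt2a it was 179 ± 9.24 and 180 ± 12.1 (0.01, interval -0.11 to 0.13). The region at Kmt2d was the one with an unadjusted p under 0.05. Its 4 DMSO libraries read 286, 321, 271 and 257 CPM, and its 4 TBT libraries 259, 244, 238 and 268. The groups overlapped, and the log2 difference was -0.17 ± 0.065 (adjusted p = 0.511). The Ash2l region inside the gene, reached only with a window of 5000 bases, read 121 ± 9.2 and 123 ± 4.9 (0.02, interval -0.11 to 0.15). The merged regions of Kmt2d, Setd1a and Setd1b and that at the lower end of Kmt2b were 15200 to 27400 bases wide and reached past the member. The region at the lower end of Kmt2b came within 1000 bases of that end only through an island of DMSO replicate 1. Reads outside called islands are not in these sums, which therefore move with how much was called. At Kmt2d the start island was wider in every DMSO library than in any TBT library. The part of this width in the Kmt2d difference was not tested.

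**Figure D4:**
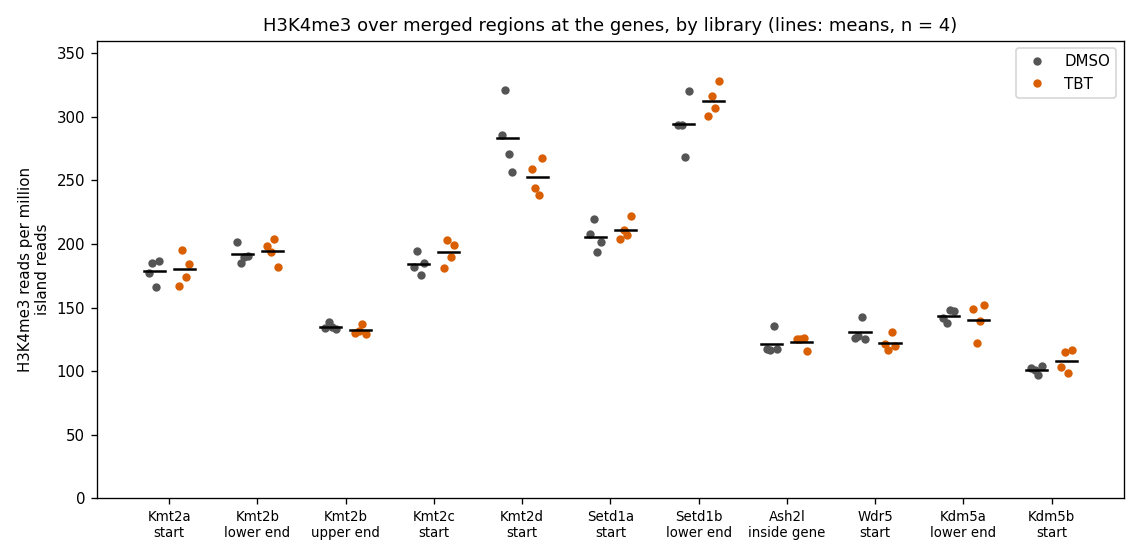
H3K4me3 CPM of island reads (vertical axis, from 0) in the merged region at each gene, for 4 DMSO and 4 TBT libraries, with black lines at the means. DMSO and TBT points overlap at every gene.

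H3K27me3 is the mark of Polycomb repression. An island came within 1000 bases of a start or span end in at least 1 of 8 libraries for 6 of 10 members, in no more than 2 libraries at any one place, and at 1.11 to 1.44 times the input. With islands of at least 2 times the input the number was 0. Over the whole gene spans 7 members held an island in at least 1 library, among them one inside Kdm5a at 2.15 times the input in DMSO replicate 2. The share over all genes was not computed. Inside Ash2l, the authors' deposited table of differential peaks lists a stretch of H3K27me3 that was higher with TBT, at chr8:25824601-25829200, with a log2 concentration of 2.36 for DMSO and 5.64 for TBT and an FDR of 0.0228. The islands behind it were called in TBT replicates 1 and 2, at 1.67 and 1.63 times the input, and not in that stretch in the DMSO libraries or in TBT replicates 3 and 4. The authors' deposited table for H3K4me3 lists no peak within 20000 bases of a member. The H3K27me3 table lists 1 more, at chr7:127810601-127830800, 10478 bases past the span of Setd1a, with 3.63 for DMSO, 6.48 for TBT and an FDR of 0.0455. In all, the authors' deposited tables list 246 peaks for H3K4me3, 24 higher with TBT and 222 higher with DMSO. For H3K27me3 they list 4329, with 2055 higher with TBT and 2274 higher with DMSO. The edgeR test of merged H3K4me3 regions leaned the other way, with 14 higher and 7 lower with TBT.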

How the data were processed

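The authors deposited raw read counts per gene symbol for 24 RNA libraries. Per the submitters' processing notes, SICER, DiffBind, STAR, DESeq2, SAMtools and FastQC were used, with no version named, on mm10 (GRCm38). The read counter and its strand setting were not given in the sources used here. Reads assigned to no gene (20.9% to 24.3% outside genes) and 92 spike-in entries were left out of library sizes. Per the labels' protocols libraries were pooled for sequencing, with no run named for any of them. For each ChIP library the authors deposited islands with ChIP and input counts, a fold over input (ratio), a p-value and an FDR, called per library with a window of 200 bases, a gap of 600 bases and an FDR of 0.001, per the file names. The authors' deposited differential peaks give log2 concentrations, log2 fold and FDR as adjusted p-values, and list only peaks at an FDR of at most 0.05.

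Counts were tested here with edgeR 4.0.16 (filterByExpr, TMM, one quasi-likelihood fit of 24 libraries, 12529 genes, Benjamini-Hochberg, threshold 0.05) in R 4.3.3; log2 CPM used a prior count of 2. Intervals are 95%. Library pairs of a treatment differed by more than sampling noise (chi-square per gene 1.35 to 4.79). H3K4me3 islands overlapping by at least 1 base were merged and their counts tested likewise. Starts came from RefSeq promoters (GRCm38.p6) for 6 members; for the other 4 both ends of the RefSeq span were used. Windows were 1000 bases to either side. Island coordinates are printed 1-based. Alternatives were DESeq2 1.42.0, spike-in scaling, other size factors, no filter, fewer libraries, the replicate block, and other windows and island cuts. Those added after seeing the data were depth as a covariate, a fit without the deepest library of each treatment and a fit without TBT replicate 2. The depth fit was also run with these libraries left out. Named genes are all 10 members, the first 3 of each list by adjusted p across treatments among those past the threshold, and the 3 most correlated genes (mean log2 CPM 1 or more) for each member past it; other genes named were chosen after their values were seen. The members and lists were chosen with earlier results of these data known. The RNA fit was run on a simulated data set for TBT against DMSO. Its counts were drawn from the fitted model, without a depth effect or an outlying library. The H3K4me3 fit was not tested in this way. Transcript lengths were not used, so levels of different genes are not compared.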

Additional observations from a re-analysis of the deposited data

Results flagged for a closer look

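In 66 groups of one gene or region and one treatment, a library was picked out where its gap to the nearest other exceeded the 95% critical value of Dixon's test over the group's range, which chance does in about 1 of 20 groups. None of the 40 RNA groups and 3 of the 26 H3K4me3 groups were picked out. H3K4me3 at the Ash2l region was 135 CPM of island reads in DMSO replicate 3, with the other 3 DMSO libraries at 116 to 117. The same region was at 116 in TBT replicate 4, with the other 3 TBT libraries at 125 to 126. H3K4me3 at Wdr5 was 143 in DMSO replicate 3, with the others at 125 to 128.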

How the results depend on the processing

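Of 540 log2 differences of a member recomputed under an alternative, 513 kept their side of the threshold, 22 lost a call and 5 gained one, and 0 called values changed direction. With ERCC library sizes, the members called fell from 2 to 0 (TBT against DMSO), 3 to 0 (4204 against DMSO), 4 to 2 (TBT against ROSI), 3 to 0 (4204 against ROSI) and 4 to 1 (any of the 4 treatments). TBT against DMSO gave 1 with DESeq2 size factors, with DESeq2's Wald test and with only the 12 libraries compared, each time Ash2l. ROSI against DMSO gave 1 (Kmt2a) with no filter and 1 with the replicate block. Correlations of same-numbered deviations were -0.05 to 0.12 in RNA and 0.0025 to 0.084 in H3K4me3. None was computed for libraries of different number, so whether the numbers pair the libraries was not settled. With the replicate block, the genes called across the 4 treatments went from 4330 to 4725. For the members, the block gave 2 (TBT against DMSO), 3 (4204 against DMSO) and 0 (TBT against 4204). It gave 4 (TBT against ROSI), 4 (4204 against ROSI, with Kmt2d added) and 5 across the 4 treatments (with Setd1b added). Without the deepest library of each treatment, TBT against ROSI gave 2 and the members changing with depth went from 5 to 2, of 254 genes in place of 1937. Without TBT replicate 2, an alternative also added after seeing the data, the counts were 2, 3, 0, 0, 3 and 3 for the comparisons in the order of the report and 3 across the 4 treatments. H3K4me3 called 0 member regions under every alternative run, including each library left out, while the regions called in all went from 21 to 1 (fold of at least 5, of 5844 regions), 136 (DESeq2), 27 (replicate block) and 5 to 11 (1 library left out). H3K27me3 islands were at 8 members with a window of 5000 bases and at 0 with a fold of at least 2. The causes of these shifts were not tested.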
